A study of Drosophila melanogaster and Drosophila yakuba and Drosophila virilis with 31 samples.

Results

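Notch signalling and the proneural genes together decide which cells of the ectoderm become neuroblasts. Notch (N) is the receptor, Delta (Dl) is a ligand on the neighbouring cell, and neuralized (neur) encodes a ubiquitin ligase that promotes endocytosis of the ligand and so its activity. On activation the intracellular part of the receptor enters the nucleus and joins Suppressor of Hairless (Su(H)), which binds DNA, and mastermind (mam), a coactivator, while Hairless (H) recruits corepressors to Su(H) and opposes the pathway. The proneural genes achaete (ac) and lethal of scute (l(1)sc) encode bHLH transcription factors of the achaete-scute complex that give groups of neurectoderm cells the competence to form neural precursors, and Notch signalling then restricts that competence to single cells. In Drosophila much of this machinery is also supplied to the egg by the mother, so a level in the early embryo can hold maternal and zygotic transcripts together.

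The genes described here are N, Dl, neur, mam, Su(H), H, ac and l(1)sc. They were chosen by name, and 8 of the 9 genes named were rows of the abundance table of 5993 genes, the ninth, asense, not being analysed here. The libraries were 31 mRNA-Seq libraries of single individuals of D. melanogaster (mel, strain Oregon-R), D. yakuba (yak, Tai18E2), D. pseudoobscura (pse, MV2-25) and D. virilis (vir, V46), each species being 1 strain. Each species had 3 female and 3 male embryos at stage 5, the end of the blastoderm stage, when the cells have formed and gastrulation has not begun, sexed by PCR for Y-linked DNA. Whole embryos were collected at room temperature. Newly laid unfertilized eggs, which hold maternal transcripts only, had 1 library in pse and 2 in each other species. The study dropped pse female 3 and vir male 1 as of low quality, and the comparisons below use the other 22 embryos and 7 eggs. Levels are normalised FPKM, mapped fragments per kilobase of transcript scaled to library size, so a level is relative to the other transcripts of its library and levels of different genes are compared per length. The tables hold no read counts, so the depth is unknown. Each library is a whole embryo, so fewer cells expressing a gene and less RNA per cell cannot be told apart.

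The sex labels held for all kept embryos: Sxl, the female switch gene, was at 358.2 to 926.1 FPKM in females and 51.4 to 139.8 in males, without overlap in any species, and msl-2, which dosage compensation in males requires, was at female minus male differences of -2.20 to -1.51 on the log2 scale. The stage labels were checked with 2 marker lists. Summed over 16 zygotic genes of the blastoderm (pair-rule, gap, dorsoventral and cellularisation genes) the level was 893.6 to 1489.5 FPKM in embryos and 0.161 to 1.16 in eggs. Summed over 12 maternal genes of the egg (among them bcd, osk, tor and gnu) it was 1636.5 to 2324.4 in eggs, and in embryos 151.5 to 192.7 in mel, 130.5 to 183.5 in yak, 358.5 to 447.0 in pse and 671.3 to 830.5 in vir. Most of the vir embryo sum was the single gene plutonium (plu), at 538.1 to 705.2 FPKM in vir embryos and 295.1 to 409.7 in vir eggs, against 19 to 36.5, 3.42 to 16.7 and 122.3 to 137.5 in mel, yak and pse embryos. Without plu, a sum added after the data were seen, the other 11 markers were at 116.3 to 133.2 FPKM in vir embryos, 132.5 to 172.5 in mel, 118.3 to 180.1 in yak and 224.1 to 309.5 in pse, and at 1232.1 to 2265.5 in eggs. By those 11 genes the pse embryos were above all others, and the vir embryos were at the low end of the ranges of mel and yak. Much of the pse excess was the single gene exu. Its embryo mean was 81.4 FPKM in pse, against 2.82, 1.69 and 4.74 in mel, yak and vir. Of 13 eggshell genes made by follicle cells only Cp18 was in the table, at 2.8 FPKM or less in every library.

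**Figure D1:**
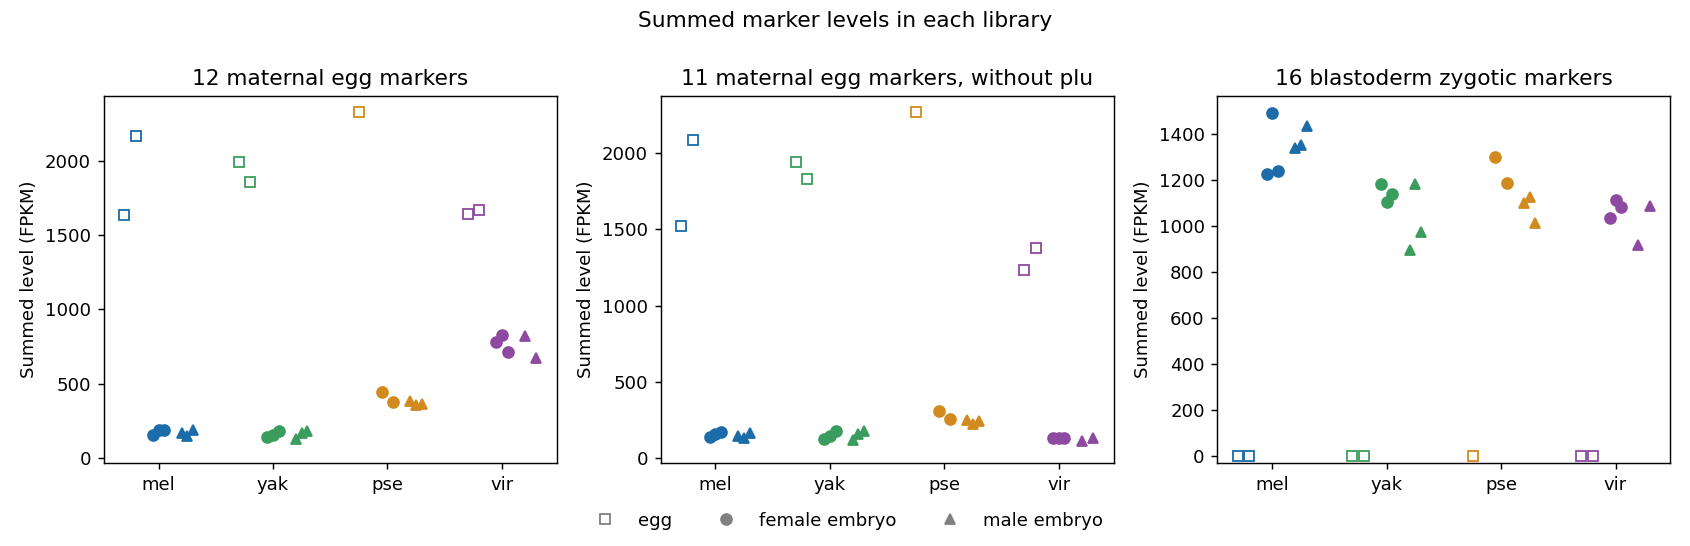
Summed level in FPKM of the 12 maternal egg markers (left), the same without plu (middle) and the 16 blastoderm zygotic markers (right) in each library, by species; squares are eggs, circles female and triangles male embryos. The vir embryos hold 671.3 to 830.5 FPKM of all 12 maternal markers but 116.3 to 133.2 without plu, and eggs hold at most 1.16 FPKM of zygotic markers.

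In the mel coordinates of the files (release 5), 3 of the 8 genes lie on the X chromosome: N (FBgn0004647) at X:3028904-3066295, ac (FBgn0000022) at X:264063-264980 and l(1)sc (FBgn0002561) at X:303755-304850. Dl (FBgn0000463), neur (FBgn0002932) and H (FBgn0001169) lie on 3R, at 15128452-15151935, 4846067-4865189 and 16447664-16454637. Su(H) (FBgn0004837) lies on 2L at 15039495-15043335 and mam (FBgn0002643) on 2R at 9878685-9947861. The positions span whole genes, introns and UTRs included. The achaete-scute pair keeps its arrangement in all 4 genomes, with scute (sc) between ac and l(1)sc, and the stretch from one gene to the other is 38.8 kb in mel, 39.1 kb in yak, 53.3 kb in pse and 73.2 kb in vir.

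**Figure D2:**
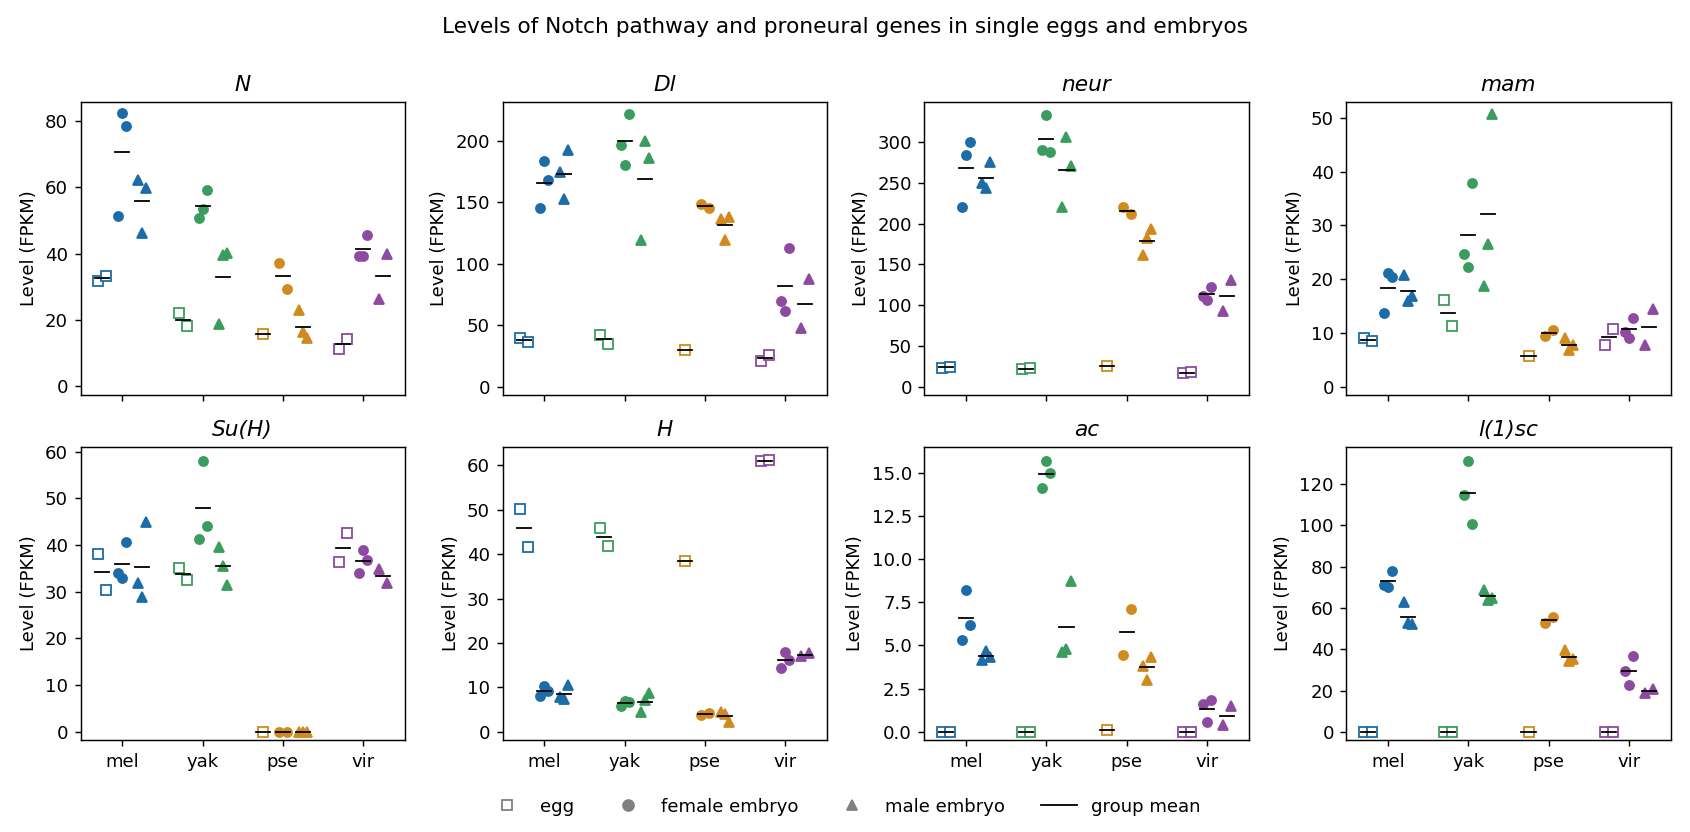
Level in FPKM (linear axes, a scale of its own for each gene) of the 8 genes in every kept library, by species; squares are eggs, circles female embryos, triangles male embryos and bars group means. In each species l(1)sc and neur are far higher in embryos than in eggs and H is lower, and Su(H) is at or near 0 in all pse libraries.

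What the mother supplies and what the embryo holds at the end of the blastoderm stage was compared within each species. The ligand, its ubiquitin ligase and both proneural genes were higher in embryos in all 4 species, and the antagonist H was lower in embryos in all 4. The receptor N was higher in mel, yak and vir, mam in mel and yak, and Su(H) passed the main test in no species. By limma, on log2(FPKM + 1) and with a threshold of 0.05 on the p adjusted by Benjamini-Hochberg over 5983 genes, 6 of the 8 genes were higher and 1 lower in mel, where 44.2% of all genes were higher and 32% lower. In yak 6 of 8 were higher and 1 lower, beside 38.6% and 33% of all genes. In pse, where Su(H) was not counted, 4 of 7 were higher and 1 lower, beside 35.4% and 32%. In vir 5 of 8 were higher and 1 lower, beside 44.4% and 27.2%. Of all genes, 16.2% were higher in embryos in every species, as 4 of these 8 genes were, and 11.4% were lower in every species, as H was. The median embryo minus egg difference over all genes was 0.18, 0.08, 0.08 and 0.25 in mel, yak, pse and vir on this log2 scale, and changes below are to be read against it. Normalisation moved this median to -0.17, -0.17 and -0.28 in mel, yak and pse (95th percentile) or 0.43, 0.34 and 0.40 (median), and in vir between 0.00 and 0.11 under these same normalisations. With it the share of calls that were higher in embryos moved from 58%, 53.9%, 52.5% and 62% in mel, yak, pse and vir to 40.4%, 37.3%, 34.4% and 46% under the 95th percentile normalisation and to 66.1%, 66%, 66.6% and 54.9% under the median.

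**Figure D3:**
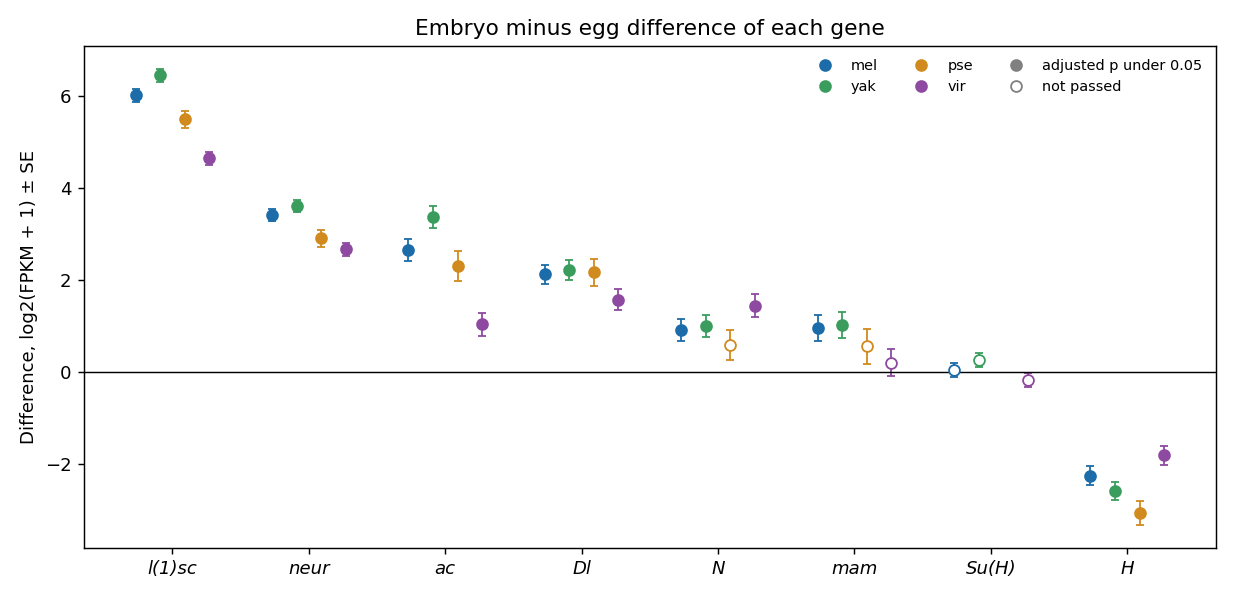
Embryo minus egg difference of each gene on the log2(FPKM + 1) scale in the 4 species, with its standard error from limma; filled points have an adjusted p under 0.05 and open points do not. The differences run from 6.46 for l(1)sc in yak to -3.06 for H in pse, and those of Su(H) lie near 0 (not drawn for pse).

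N, the receptor, was present in the eggs of all species and moderately higher in embryos. In mel the eggs were at 31.8 and 33.4 FPKM and the 6 embryos at 46.1, 60.9 and 82.3 (lowest, median, highest), a difference of 0.91 ± 0.24 (SE; limma, adjusted p = 0.00152). In vir the eggs were at 11.4 and 14.3 and the 5 embryos at 26.3, 39.2, 39.4, 40 and 45.7, a difference of 1.45 ± 0.25 (adjusted p = 1.52e-05), the largest of the 4 species. In neither species did eggs and embryos overlap. In yak, where 1 male embryo at 18.9 lay between the eggs at 18.1 and 22.2, the other 5 embryos were at 39.7 to 59.1 and the difference was 1.00 ± 0.24 (adjusted p = 0.000648). In pse the embryos, 14.7 to 37.3, overlapped the single egg at 15.8, and the difference of 0.59 ± 0.32 did not pass (adjusted p = 0.11). The calls in mel and yak depended on the normalisation: without normalisation after the level estimation the differences were 0.29 and 0.40, with the 95th percentile they were 0.14 and 0.29, none of which passed, while TMM gave 0.53 in mel and the median 1.51 in yak, which did. In pse N was at -0.03 and -0.16 under those first settings, but passed as higher in embryos with the median (1.16, adjusted p = 0.00225) and with quantiles (1.22, adjusted p = 0.000687). The vir call passed under all normalisations, at 0.94 with the 95th percentile.

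Dl, the ligand, was at 21.1 to 42.3 FPKM in the eggs and several times higher in embryos. The mel eggs were at 39.6 and 36.2 FPKM, the yak eggs at 42.3 and 34.4, the pse egg at 30.1 and the vir eggs at 21.1 and 25.4. The embryos were at 145.9, 171.4 and 192.7 in mel, at 119.8, 191.6 and 222.2 in yak (lowest, median, highest) and at 119.2 to 149.0 in pse, while the 5 vir embryos were at 47.9, 61.9, 69.7, 87.4 and 113.2. Every embryo was above every egg of its species, as for 44.7%, 38.5%, 43.2% and 47.9% of all genes in mel, yak, pse and vir, and the ratio of the means was 4.48, 4.81, 4.57 and 3.27 in that order. On the log2 scale the differences were 2.13 ± 0.21, 2.22 ± 0.21, 2.17 ± 0.29 and 1.58 ± 0.22 (SE), with limma adjusted p from 2.85e-09 to 1.04e-06. With the 95th percentile they passed at smaller sizes, 1.36, 1.40 and 1.05 in mel, pse and vir.

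neur, which promotes signalling by the ligand, rose most among the genes present in eggs. Its eggs were within a narrow range, 22.8 and 24.3 FPKM in mel, 21.4 and 22.6 in yak, 25.3 in pse and 16.1 and 17.3 in vir. The embryos were at 220.5, 263.0 and 299.7 in mel and at 220.0, 289.1 and 334.0 in yak (lowest, median, highest), at 162.0 to 220.5 in pse and at 92.7, 106.6, 110.9, 122.8 and 130.4 in vir. Embryos exceeded eggs 11.1-fold, 12.9-fold, 7.66-fold and 6.76-fold (mel, yak, pse, vir), and the lowest embryo of each species was above its eggs. The log2 differences were 3.42 ± 0.13, 3.62 ± 0.13, 2.91 ± 0.18 and 2.67 ± 0.14, with limma adjusted p from 1.29e-16 to 2.61e-12. Thus the ligase was below the ligand in every egg library and above it in every embryo library, in FPKM.

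Of the nuclear activators, Su(H) passed in no species and mam in mel and yak. Su(H), which binds DNA, was at 38.1 and 30.3 FPKM in mel eggs and 28.9 to 45 in the embryos, at 35 and 32.6 in yak eggs and 31.4 to 58.1 in the embryos, and at 36.3 and 42.5 in vir eggs and 31.9 to 38.9 in the embryos. Eggs and embryos overlapped in all 3 species, and the differences of 0.05 ± 0.15, 0.27 ± 0.15 and -0.17 ± 0.16 did not pass limma's test (adjusted p = 0.811, 0.129 and 0.371). The call and its direction depended on the normalisation. Without one, Su(H) was lower in embryos in mel, yak and vir (-0.58, -0.34 and -0.63, adjusted p = 0.00109, 0.0381 and 0.000705), as with the 95th percentile (-0.72, -0.45 and -0.70, adjusted p = 0.000119, 0.00831 and 0.000258), and with TMM it was lower in vir (-0.64, adjusted p = 0.00123). With the median it was higher in mel and yak (0.41 and 0.78, adjusted p = 0.041 and 0.000397), and with quantiles in yak (0.37, adjusted p = 0.0331). No direction can therefore be given for Su(H). mam, the coactivator, was 2.07-fold and 2.19-fold higher in embryos in mel and yak (eggs 8.96 and 8.51, embryos 13.6 to 21.2 in mel; eggs 16.2 and 11.3, embryos 18.8 to 50.8 in yak), with log2 differences of 0.96 ± 0.28 and 1.02 ± 0.28 (limma adjusted p = 0.00397 and 0.00267). These calls were lost without normalisation (0.37 and 0.43) and with the 95th percentile (0.24 and 0.32), the mel call also with TMM (0.61), and the yak call without yak egg 2 (0.77). In pse and vir the differences of 0.56 ± 0.38 and 0.21 ± 0.29 did not pass (adjusted p = 0.207 and 0.558), and their sign turned to -0.02 and -0.23 without normalisation. In pse mam passed as higher with the median (1.07, adjusted p = 0.0113), with quantiles (1.17, adjusted p = 0.00645) and with a fit of pse alone (0.56, adjusted p = 0.0456).

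H, the antagonist, was the only one of the 8 genes called lower in embryos in the main test. Its eggs were at 50.1 and 41.7 FPKM in mel, 46 and 41.9 in yak, 38.5 in pse and 60.9 and 61.2 in vir. The embryos were at 7.32, 8.63 and 10.5 in mel and at 4.39, 6.87 and 8.85 in yak (lowest, median, highest), at 2.31, 3.77, 3.95, 4.23 and 4.43 in pse and at 14.3, 16.1, 17, 17.8 and 17.9 in vir. The egg means were 5.17, 6.62, 10.3 and 3.67 times the embryo means (mel, yak, pse, vir), with no overlap, as for 31.6%, 32.8%, 37.4% and 28.9% of all genes, and H fell by 2.25 ± 0.20, 2.58 ± 0.20, 3.06 ± 0.26 and 1.81 ± 0.20 on the log2 scale (limma adjusted p from 4.99e-11 to 3.87e-08). In eggs H was above N, Dl and neur in every library, and in embryos below all 3 in every library. The authors' classes of origin put H among maternal genes in all 4 species with high confidence. In yak, pse and vir the authors predicted these classes from these same egg and embryo levels, so there they add no separate support. N was also classed as maternal in all 4 species, with high confidence in mel only.

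The proneural genes were absent or nearly so from eggs. l(1)sc was listed at 0 in all 7 eggs and was at 52 to 77.9 FPKM in mel embryos, 63.8 to 131.3 in yak, 34.2 to 55.7 in pse and 18.9 to 36.8 in vir. The log2(FPKM + 1) differences of 6.02 ± 0.14, 6.46 ± 0.14, 5.50 ± 0.18 and 4.65 ± 0.14 (limma adjusted p from 8.41e-21 to 7.95e-17) set the embryo level against 0, and no fold is given. ac was listed at 0 in 6 eggs and at 0.126 in the pse egg, and its embryos were much lower than those of l(1)sc, at 4.14 to 8.21 in mel, 4.61 to 15.7 in yak, 3.01 to 7.12 in pse and 0.375 to 1.85 in vir. Its differences were 2.66 ± 0.24, 3.38 ± 0.24, 2.31 ± 0.33 and 1.04 ± 0.25 (limma adjusted p from 1.73e-11 to 0.000743). The call in vir was lost with quantile normalisation (0.54) and with a pseudocount of 10 (0.16). The authors' classes put both genes among zygotic genes in all species with high confidence. Outside mel these classes were again predicted from these same levels.

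Levels in embryos were then compared between the species, over the mean of both sexes. D. virilis differed from each other species for 5 of the 8 genes: Dl, neur, ac and l(1)sc were lower in vir than in each of the other 3 species, and H was higher than in each. Over all genes, 18% were lower and 22.4% higher in vir than in each other species. Such differences were not particular to vir. By the same rule yak was above each other species for ac, l(1)sc and mam, pse below each for H and N, and mel above each for N. The shares of all genes were not counted for these species. Of the 45 comparisons of 8 genes in 6 pairs of species, Su(H) in pse left out, 36 passed limma's test, 7 with the species named first higher and 29 with it lower, against 76.3% of all gene-by-pair comparisons. By pair, 67.7% of all genes passed for yak minus mel, 77.9% for pse minus mel, 80.7% for vir minus mel, 74.7% for pse minus yak, 79.8% for vir minus yak and 77.3% for vir minus pse. The vir calls of the 5 genes against each species held under every alternative and on leaving out any 1 embryo. Each species was aligned to its own annotation, so a difference in level between species cannot be told apart from one in gene models, and each species is 1 strain.

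l(1)sc had the clearest order of levels, with embryo means of 90.6 ± 28.9 FPKM in yak (SD, n = 6), 64.5 ± 10.5 in mel (n = 6), 43.5 ± 10.1 in pse (n = 5) and 25.8 ± 7.4 in vir (n = 5). Each step of this order passed: yak above mel by 0.44 ± 0.10 on the log2 scale (limma adjusted p = 0.000585), pse minus mel at -0.51 ± 0.10 (adjusted p = 0.000173) and vir minus pse at -0.86 ± 0.11 (adjusted p = 7.48e-07). ac, its neighbour in the complex, was at 10.5 ± 5.12 in yak, 5.48 ± 1.53 in mel, 4.55 ± 1.55 in pse and 1.19 ± 0.662 in vir. ac in yak was above mel by 0.72 ± 0.19 (adjusted p = 0.00214), mel and pse did not differ beyond their spread (-0.18 ± 0.20, adjusted p = 0.407), and vir lay below pse by 1.44 ± 0.21 (adjusted p = 3.65e-06). Both genes had the order yak, mel, pse, vir in their means.

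neur was at 284.9 ± 38.3 FPKM in yak, 262.4 ± 29.5 in mel, 193.9 ± 23.3 in pse and 112.7 ± 14.6 in vir. yak and mel did not differ beyond their spread (0.11 ± 0.10, limma adjusted p = 0.328), pse minus mel was -0.41 ± 0.11 (adjusted p = 0.00172) and vir minus pse was -0.81 ± 0.11 (adjusted p = 1.94e-06). Dl followed with 184.4 ± 34.8 in yak, 169.7 ± 17.9 in mel, 137.6 ± 11.5 in pse and 76 ± 25.2 in vir. For Dl only the step from pse to vir passed among neighbours in this order (-0.95 ± 0.18, adjusted p = 7.62e-05), since mel minus pse and yak minus mel did not (pse minus mel -0.28 ± 0.17, adjusted p = 0.135; yak minus mel 0.10 ± 0.16, adjusted p = 0.598). The highest vir embryo for Dl, at 113.2, was below the lowest pse embryo, at 119.2.

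H had another order, with embryo means of 16.6 ± 1.5 FPKM in vir, 8.88 ± 1.3 in mel, 6.65 ± 1.5 in yak and 3.74 ± 0.838 in pse. vir was 1.87, 2.5 and 4.44 times mel, yak and pse, and the lowest vir embryo, at 14.3, was above the highest embryo of any other species, at 10.5. vir minus mel was 0.85 ± 0.16 (limma adjusted p = 6.23e-05) and pse minus yak was -0.67 ± 0.16 (adjusted p = 0.000764). yak minus mel was -0.38 ± 0.15 (adjusted p = 0.0285), and this call was lost with 3 other normalisations and without mel male 3 (-0.32), mel female 2 (-0.35), yak male 1 (-0.26) or yak female 1 (-0.35). The sum of the 11 maternal markers other than plu was 116.3 to 133.2 FPKM in vir embryos and 224.1 to 309.5 in pse embryos. In pse it held exu at a mean of 81.4. The part of this sum in the H levels was not tested. The zygotic marker sum was 915.6 to 1109.6 FPKM in vir embryos and overlapped those of yak and pse. It was below that of every mel embryo, at 1225.6 to 1489.5.

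N and mam did not follow the order of the proneural genes. N was at 63.4 ± 14.4 FPKM in mel, 43.7 ± 14.3 in yak, 38.1 ± 7.13 in vir and 24.2 ± 9.39 in pse. N was higher in mel than in yak (yak minus mel -0.58 ± 0.18, limma adjusted p = 0.00746), a call lost with the removed libraries kept in (adjusted p = 0.0579). For N, yak and vir did not differ beyond their spread (vir minus yak -0.17 ± 0.19, adjusted p = 0.43), and vir was above pse (0.57 ± 0.20, adjusted p = 0.0135). The call of vir above pse was lost without pse female 2 (0.49) or vir male 3 (0.43), with the median (0.42) and with the removed libraries kept in (0.45). mam was at 30.1 ± 12 in yak, 18.1 ± 3.1 in mel, 10.8 ± 2.72 in vir and 8.67 ± 1.47 in pse. mam in yak was above mel (0.64 ± 0.21, adjusted p = 0.0103), vir was below mel (-0.71 ± 0.22, adjusted p = 0.00622), a call lost without vir male 2 (-0.50), and vir and pse did not differ beyond their spread (0.24 ± 0.23, adjusted p = 0.347).

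Su(H) was nearly level across 3 species and at 0 in the other. Its embryo means were 35.5 ± 6.04 FPKM in mel, 41.7 ± 9.22 in yak and 35.3 ± 2.7 in vir, and none of the 3 pairs passed limma's test (adjusted p = 0.0969 for yak minus mel, 0.945 for vir minus mel and 0.0888 for vir minus yak). In pse Su(H) was listed at 0 in all 5 kept embryos and in the removed female, and at 0.0493 FPKM in the egg. Of 5983 genes tested, 3 were below 1 FPKM in every pse library and above 10 in each group mean of the other species: Su(H), l(1)10Bb and Sps2. By the same rule there were 4 such genes for vir and none for mel or yak. With no reads in the tables, absence of the transcript and a gene model that collects no reads cannot be told apart, so no pse contrast is given for Su(H).

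Egg levels were compared between mel, yak and vir. Of 18 comparisons of the 6 genes present in eggs, in the 3 pairs of mel, yak and vir, 4 passed limma's test, all lower in vir (7 at an unadjusted p under 0.05), against 46.3% of all gene-by-pair comparisons, or 30.5% for yak minus mel, 53.2% for vir minus mel and 55.3% for vir minus yak. N was at 11.4 and 14.3 FPKM in vir eggs and 31.8 and 33.4 in mel eggs, and vir minus mel was -1.29 ± 0.29 (limma adjusted p = 0.000675), the egg call that held on leaving out any single egg and under every alternative, at -0.75 with the median. For neur, vir minus mel was -0.47 ± 0.16 (adjusted p = 0.0174), lost without mel egg 3 (-0.43) or vir egg 1 (-0.43), with the quantile table (-0.16) and with the median, where its sign turned (0.06). The neur call was also lost with TMM (-0.38), a pseudocount of 10 (-0.33), the removed libraries kept in (-0.47) and a replicate block (-0.23). In the block fit, levels compared between species are those at the lowest-numbered replicate of each. Dl in vir eggs was below mel by 0.69 ± 0.26 (adjusted p = 0.0314) and below yak by 0.70 ± 0.26 (adjusted p = 0.0273). Both Dl calls were lost without vir egg 1 (-0.56 and -0.57), the first also without mel egg 2 (-0.62) or mel egg 3 (-0.75) and the second without yak egg 1 (-0.55). Both were also lost with TMM (-0.59 and -0.50) and a pseudocount of 10 (-0.53 and -0.54), the first with quantiles (-0.59), and with the median little was left of either (-0.14 and -0.04). Over all genes the share of egg calls higher in vir moved with the median normalisation from 46.7% to 67.4% against mel and from 48.7% to 70.5% against yak. With 2 eggs a species the values are few, and H, at 60.9 and 61.2 FPKM in vir against 41.7 to 50.1 in mel, did not pass (0.41 ± 0.24, adjusted p = 0.166).

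Whether the change from egg to embryo itself differed between species was tested in the same 3 pairs. Of 24 comparisons 7 passed, all with vir, against 59.2% over all genes, or 47% for yak minus mel, 65.9% for vir minus mel and 64.6% for vir minus yak. Over all genes 51% of calls against mel and 55.1% against yak were higher in vir, and with the median normalisation 35.3% and 36%. neur rose less in vir, by 0.74 ± 0.19 against mel (limma adjusted p = 0.00165) and by 0.95 ± 0.19 against yak (adjusted p = 0.000154), and with the median by 1.34 and 1.70. H fell less in vir than in yak, by 0.77 ± 0.28 (adjusted p = 0.0207), a call lost with the median (0.02), a pseudocount of 10 (0.29), TMM (0.53), quantiles (0.55) and the removed libraries kept in (0.56), and without yak egg 1 (0.70), vir egg 1 (0.77) or vir egg 2 (0.77), while against mel the difference of 0.44 ± 0.28 did not pass (adjusted p = 0.175). For ac and l(1)sc, whose eggs are at 0 in these species, this test is again that of the embryo levels. For N and Dl no difference in the change passed (N, vir minus mel 0.54 ± 0.34, adjusted p = 0.169; Dl, vir minus mel -0.54 ± 0.31, adjusted p = 0.124).

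Female and male embryos were compared within each species. Females carry a pair of X chromosomes and males a single one, whose transcription the dosage compensation complex later raises. The paper places this stage before that compensation is established. In these tables the median female minus male difference of 1014 X-linked genes of mel was 0.31, 0.18, 0.19 and 0.30 in mel, yak, pse and vir, and that of the 4969 other genes was 0.00 in all 4. In pse those other genes include the 1124 of mel 3L, an arm that is X-linked there. Their median in pse was 0.21, and 14.7% were called higher in females. The 3 X-linked genes here, N, ac and l(1)sc, had higher means in females than in males in each species, from 1.25-fold to 2.47-fold. limma called 0 of 8 genes in mel (1 at an unadjusted p under 0.05), 2 of 8 in yak, 1 of 7 in pse and 0 of 8 in vir (1 at an unadjusted p under 0.05), beside 3.34%, 2.99%, 6.18% and 3.06% of all genes in either direction. Of all genes called, 86.5%, 84.1% and 90.7% were higher in females in mel, pse and vir, and 73.9%, 65.8% and 80% with quantile normalisation. All 3 calls among the 8 genes were X-linked and higher in females, beside 16%, 15.6%, 13.8% and 15.3% of X-linked genes called higher in females in mel, yak, pse and vir.

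l(1)sc was higher in every female than in every male in all 4 species. The females were at 71.3, 70.2 and 77.9 FPKM and the males at 62.7, 52.7 and 52 in mel, and in yak the females were at 114.5, 131.3 and 100.4 and the males at 68.6, 63.8 and 64.8. In pse the females were at 52.9 and 55.7 and the males at 39.5, 34.2 and 35.1, and in vir the females were at 29.6, 22.6 and 36.8 and the males at 18.9 and 20.8. Of the X-linked genes, 45.2%, 30.7%, 41.8% and 52% had females above males without overlap in mel, yak, pse and vir. The ratio of the means was 1.31, 1.76, 1.5 and 1.49, and the differences on the log2 scale were 0.39 ± 0.14, 0.79 ± 0.14, 0.57 ± 0.15 and 0.53 ± 0.15, of which those in yak (limma adjusted p = 0.00249) and pse (adjusted p = 0.0327) passed and those in mel (adjusted p = 0.174) and vir (adjusted p = 0.0764) did not. The pse call was lost in 4 of the normalisations and without pse male 2 (0.53), male 3 (0.55), female 1 (0.61) or female 2 (0.54), and the vir difference passed without vir female 2 (0.71). With a fit of its own for each species, neither the yak call (adjusted p = 0.0947) nor the pse call (adjusted p = 0.0614) passed.

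ac had its largest difference between the sexes in yak, where the females were at 14.1, 15.7 and 15 FPKM and the males at 4.61, 4.82 and 8.75. That difference of 1.22 ± 0.26 on the log2 scale, a 2.47-fold ratio of means, passed limma's test (adjusted p = 0.0107), but not without yak male 1 (1.08) or male 2 (1.11), with a pseudocount of 0.1 (1.35, adjusted p = 0.109) or with a fit of yak alone (adjusted p = 0.135). In mel the females were at 5.34, 8.21 and 6.16 and the males at 4.14, 4.66 and 4.35, without overlap, and the difference was 0.47 ± 0.26 (adjusted p = 0.649). In pse the females were at 4.44 and 7.12 and the males at 3.83, 3.01 and 4.34 (0.50 ± 0.29, adjusted p = 0.485). In vir, where all embryos were below 2 FPKM, the sexes overlapped (0.29 ± 0.29, adjusted p = 1) and the sign turned without vir male 2 (-0.15).

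N was higher in females without overlap in yak and pse. In yak the females were at 50.8, 53.4 and 59.1 FPKM and the males at 18.9, 39.7 and 40.3, and in pse the females were at 37.3 and 29.4 and the males at 23.1, 16.3 and 14.7. The differences were 0.78 ± 0.25 and 0.87 ± 0.28, and neither passed after adjustment (limma adjusted p = 0.132 and 0.0809). The first yak male, which set the low end, was also the lowest of the 6 yak embryos for 6 of the 8 genes and had the lowest zygotic marker sum, 893.6 against 973.0 to 1182.3, and the yak difference was 0.43 without it. In mel the sexes overlapped (females 51.4, 82.3 and 78.4, males 62.1, 46.1 and 59.8, difference 0.31 ± 0.25), as in vir (females 39.4, 39.2 and 45.7, males 26.3 and 40, difference 0.34 ± 0.28). The second vir male was the lowest vir embryo for 6 of the 8 genes.

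**Figure D4:**
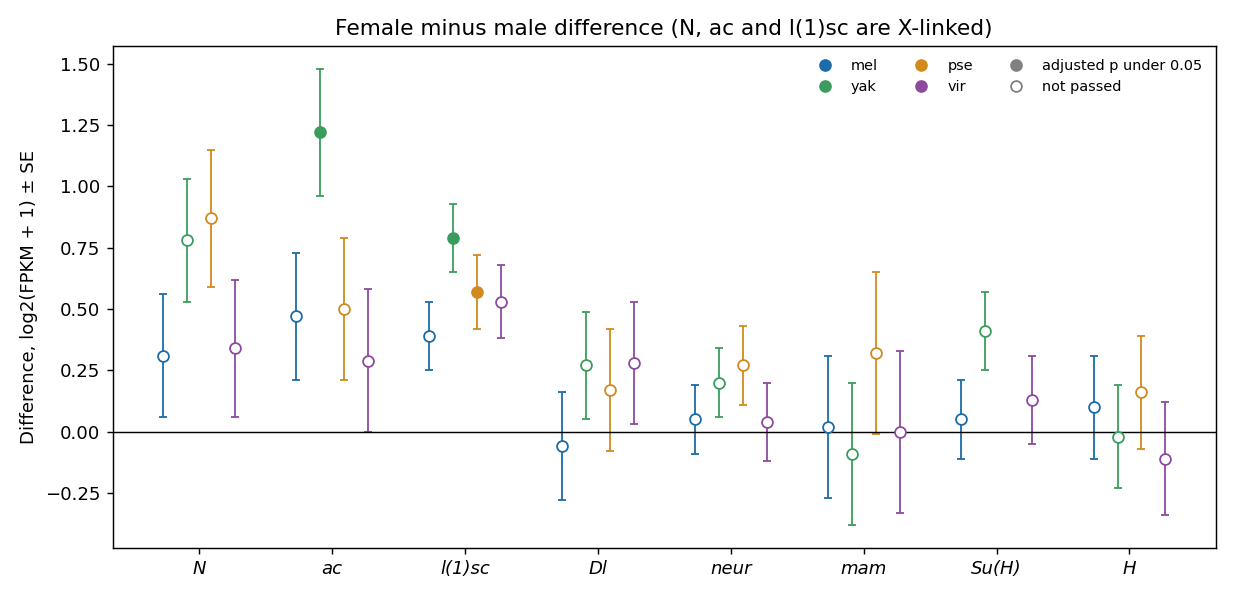
Female minus male difference of each gene on the log2(FPKM + 1) scale in the 4 species, with its standard error from limma; filled points have an adjusted p under 0.05. The X-linked N, ac and l(1)sc lie above 0 in every species, with ac and l(1)sc in yak (1.22 and 0.79) and l(1)sc in pse (0.57) passing, and Su(H) is not drawn for pse.

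None of the 5 autosomal genes passed between the sexes in any species. Their differences ran from -0.11 (H in vir) to 0.41 ± 0.16 (Su(H) in yak, limma adjusted p = 0.261, females 41.4, 58.1 and 44.1 FPKM, males 39.5, 35.6 and 31.4). The test of whether the difference between the sexes itself varied among species, over all 6 pairs, passed for none of the 8 genes, beside 0.591% of all gene-by-pair comparisons. For ac, yak against mel, that difference was 0.75 ± 0.37 (limma adjusted p = 0.915). The female excess of ac and l(1)sc in yak is therefore not shown to differ from that in the other species.

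The rest of the pathway was described by lists of genes. Of 19 genes that handle the ligand and receptor, 11, 11, 8 and 8 were higher in embryos than in eggs (mel, yak, pse, vir), while 3, 6, 2 and 4 were lower, with median differences of 0.48, 1.12, 0.15 and 0.21 beside 0.18, 0.08, 0.08 and 0.25 over all genes. In all 4 species 7 of the 19 were higher, beside 16.2% of all genes. Over all genes, for comparison with each list below, 44.2%, 38.6%, 35.4% and 44.4% were higher and 32%, 33%, 32% and 27.2% lower. The vir count of the 19 was near its share. The largest rise was in big brain (bib), a membrane protein needed for Notch signalling in neurogenesis, from 0.159 ± 0.114 FPKM in mel eggs (SD, n = 2) to 227.1 ± 30.4 in embryos (n = 6), and in vir from 0.376 ± 0.0726 to 139.3 ± 16.3 (n = 5). Tace, a metalloprotease that can cleave the receptor, rose from 0.0422 ± 0.0316 to 13.9 ± 1.65 in mel, but only to 2.74 ± 0.384 in vir. Psn, the catalytic subunit of the gamma-secretase that releases the intracellular part of Notch, rose from 48 ± 7.72 to 171.2 ± 10.3 in mel, and mib1, a second ubiquitin ligase for the ligand, from 10.9 ± 5.61 to 40.4 ± 4.09. Both rose in all 4 species, with mean differences over species of 1.79 and 1.74 on the log2 scale.

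Of 9 nuclear corepressors and coactivators, 6, 5, 4 and 6 were higher and 1, 0, 0 and 3 lower in mel, yak, pse and vir. The shares of all genes are those given above. CtBP and groucho (gro), the corepressors that Hairless recruits, rose in all 4 species, while H itself fell. CtBP went from 110.8 ± 27.9 to 446.3 ± 40.4 FPKM in mel and from 191.9 ± 21.3 to 510.2 ± 24.3 in vir, and gro from 81.5 ± 14.2 to 203.5 ± 31.8 in mel and from 109.1 ± 3.8 to 245.2 ± 17.7 in vir. kto, a Mediator subunit, was the other gene that rose in all 4 species, and CycC, its partner in the same Mediator module, rose in mel, yak and pse (1.04, 1.47 and 0.64 on the log2 scale) and fell by 0.34 in vir.

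The bHLH repressors of the Enhancer of split family are genes through which Notch acts on neural fate. The Bearded family encodes small proteins that inhibit neur. The list of 12 held genes of these families and sim, which belongs to neither. Of these 12 genes, 11, 11, 12 and 11 were higher in embryos and none was lower in mel, yak, pse and vir, with medians of 4.77, 4.56, 5.45 and 4.06. In all 7 eggs 11 of the 12 were listed at 0. The 4 named by size were all Bearded-like: Tom, at 850.0 ± 83.7 FPKM in mel embryos, 825.4 ± 63.7 in yak, 762.9 ± 71.8 in vir and 650.9 ± 97.6 in pse, and Brd, Ocho and m4. Brd was at 306.0 ± 24.2 in mel, 280.2 ± 41 in yak and 374.4 ± 168.2 in pse embryos, but at 40.3 ± 6.65 in vir. Among neur inhibitors Tom was thus higher than neur in the embryo means of each species, in FPKM.

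Of 7 bHLH partners, antagonists and other proneural factors, 6, 7, 7 and 6 were higher in embryos and none lower. sc, the member of the achaete-scute complex between ac and l(1)sc, was listed at 0 in all eggs and in embryos was at 9.54 ± 4.18 FPKM in yak, 2.71 ± 0.71 in mel, 1.8 ± 0.425 in vir and 1.58 ± 0.509 in pse, so l(1)sc was the highest of the 3 in each species. Among the antagonists, extra macrochaetae (emc) is an HLH protein without a DNA-binding basic region that sequesters proneural factors. Its embryo mean was above that of l(1)sc in each species, at 217.4 ± 36.1, 124.2 ± 22.2, 135.7 ± 31.6 and 226.8 ± 53.1 in mel, yak, pse and vir. The bHLH repressors hairy (h) and deadpan (dpn) were at 83.1 ± 9.88 and 92.2 ± 13.4 in mel and at 64 ± 8.1 and 28.3 ± 5.01 in vir. Their yak means, 48.9 and 86.3, were both below l(1)sc at 90.6. In pse they were at 43.6 and 67.9, with l(1)sc at 43.5. Of 11 neurectoderm and neuroblast factors, 10, 10, 9 and 11 were higher in mel, yak, pse and vir. SoxN and Dichaete (D), Sox proteins of the neurectoderm, were at 81.1 ± 13.2 and 49.3 ± 6.5 in mel and at 59.1 ± 20.8 and 69.8 ± 16.6 in vir embryos, and ind, which marks the intermediate column, was at 32.8 ± 3.7 in mel and 42.4 ± 15.4 in vir. Kr, a gap gene that neuroblasts express later, was at 159.0 ± 23 in mel and 57.9 ± 6.66 in vir.

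**Figure D5:**
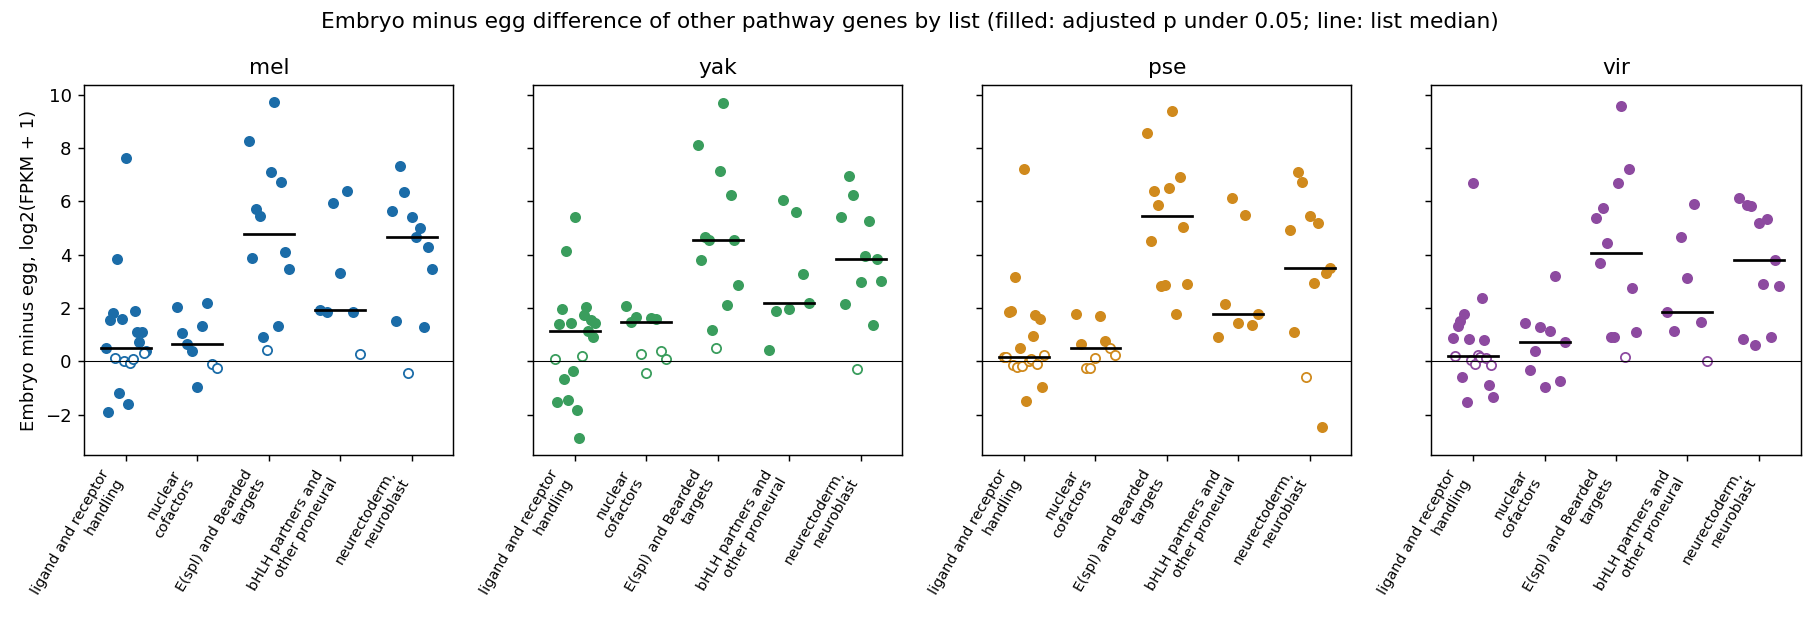
Embryo minus egg difference on the log2(FPKM + 1) scale of each gene of the 5 lists in the 4 species; filled points have an adjusted p under 0.05 and lines are list medians. The list of Enhancer of split and Bearded genes, with sim, has medians of 4.77, 4.56, 5.45 and 4.06 (mel, yak, pse, vir), while those of ligand and receptor handling lie between 0.15 and 1.12.

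Between vir and mel embryos, 15 of the 19 ligand and receptor handling genes were lower in vir and 1 was higher, with a median of -0.69 beside -0.05 over all genes, of which 42.2% were lower and 38.5% higher. Against yak 13 were lower and 4 higher, beside 37.6% and 42.2%, and against pse 8 were lower and 5 higher, beside 37% and 40.3%. The Enhancer of split and Bearded genes, with sim, were lower in 6, 5 and 9 of 12 and higher in 1, 2 and 1 in vir against mel, yak and pse. Of the 16 zygotic markers, 8, 5 and 6 were lower and 2, 4 and 3 higher in the same pairs.

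Between the sexes, the listed genes had calls mostly in pse. There 7 genes of the lists were higher in females: Brd, Ocho, kto, lqf, Nedd4, ind and deltex (dx). The first 6 lie on 3L in mel and, in the coordinates of the files, on XR in pse, the arm that became X-linked in the lineage of that species. Of 20 listed genes of 3L, the stage and eggshell markers included, 6 were higher in pse females, beside 14.7% of all 1124 genes of 3L. None of the 20 was in mel, yak or vir, where 0.178%, 0% and 0.356% of all genes of 3L were. Brd was at 547.2 ± 85.1 FPKM in the 2 pse females and 259.3 ± 56.7 in the 3 males (1.09, limma adjusted p = 0.00169), Ocho at 120.0 ± 23.6 and 66.5 ± 5.67 (0.83, adjusted p = 0.00063), and Nedd4, a ubiquitin ligase that promotes Notch turnover, at 71.6 ± 6.13 and 35.2 ± 1.27 (1.00, adjusted p = 0.000975). dx, another regulator of Notch trafficking, is on the X and was also called in yak (18.2 ± 1.03 in females, 11.5 ± 2.93 in males, 0.65, adjusted p = 0.0405), and the X-linked pecanex (pcx) was called in mel (39.6 ± 9.34 and 22.8 ± 2.95, 0.75, adjusted p = 0.0215). The 2 genes higher in males, tap in yak and amos in vir, were low, at 5.14 ± 1.02 and 3.91 ± 0.315 in males.

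Across the 29 kept libraries the genes most like l(1)sc in log2(FPKM + 1) were sloppy paired 1 and 2 (slp1 and slp2), which are pair-rule genes, and CG15628, with Pearson correlations of 0.992, 0.990 and 0.989. Dl was most like bl (0.970), neur (0.968) and Amun (0.963), and N was most like baz (0.911), CG11873 (0.908) and east (0.878). These values are descriptions over libraries of 4 species and 2 stages, which share the contrast of eggs and embryos.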

How the data were processed

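The authors trimmed the reads, aligned them with Bowtie2 to the transcripts of each species' annotation, took transcript levels from eXpress and added them up by gene (versions not given in the sources used here). They deposited values as log10 of normalised FPKM + 1 for genes with a single ortholog in each species. In the main table the autosomal 75th percentile sets the scale, and 5 more tables carry no further normalisation, the median, the 95th percentile, TMM or quantiles. A further table, deposited by the authors, holds text classes of origin (maternal, zygotic or both), other than a measurement, and is cited as such. The classes of yak, pse and vir are the authors' predictions from the egg and embryo levels. Values were turned back to FPKM, those under 1e-05 were taken as 0, and the 16 group mean columns per table were not used. The 31 libraries fell in 12 groups by species, sex and egg.

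Genes with a group mean above 1 FPKM in at least 1 group, 5983 of 5993, were tested on log2(FPKM + 1) (pseudocount 1) with limma 3.58.1 in R 4.3.3 (lmFit and eBayes with trend), two-sided, with Benjamini-Hochberg adjustment over all genes and a threshold of 0.05. Contrasts between the sexes and between embryos of species came from 1 fit of 22 embryos in 8 groups, all others from 1 fit of 29 libraries in 12 groups, in which the single pse egg is assumed to vary like the other groups. Plots and summaries used Python 3.11.15, pandas 2.3.3, numpy 2.4.6 and matplotlib 3.10.9. limma was tested on simulated data with known changes. The 8 genes and the gene lists were chosen with earlier results of these data known. The text names all 8 genes and, of each other list, up to 4 genes with the largest mean embryo minus egg difference among those called in most species, the 3 genes most correlated with N, Dl and l(1)sc, Sxl and msl-2 as a check of sex, and, chosen after their values were seen, the listed genes called between the sexes. Alternatives were the other 5 tables, pseudocounts of 0.1 and 10, no filter, the removed libraries kept in, a fit per species, a replicate block and leaving out each library. The test of differences between sexes among species and the marker sum without plu were added after the data were seen.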

Additional observations from a re-analysis of the deposited data

Results flagged for a closer look

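The change from egg to embryo differed between species for 4 of the 8 genes, by limma's test of the difference itself on log2(FPKM + 1). For vir minus mel 3 of the 8 passed, beside 65.9% of all genes. For vir minus yak 3 were lower and 1 higher, beside 64.6% passing in either direction, and for yak minus mel none passed, beside 47%. Against mel, vir had a smaller rise of ac (-1.62), l(1)sc (-1.37) and neur (-0.74). Against yak, vir had a smaller rise of ac (-2.34), l(1)sc (-1.81) and neur (-0.95), and a smaller fall of H (0.77). The H difference was 0.02 with the median normalisation and 0.29 with a pseudocount of 10 and did not pass there. It also did not pass with TMM, quantiles or the removed libraries kept in, or without yak egg 1, vir egg 1 or vir egg 2. For ac and l(1)sc the eggs are listed at 0, so these values are differences between embryo levels. The 11 maternal markers other than plu summed to 116.3 to 133.2 FPKM in vir embryos, 132.5 to 172.5 in mel and 118.3 to 180.1 in yak, and their part in these differences was not tested.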

How the results depend on the processing

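The counts of genes called in embryos against eggs (7, 7, 5 and 6 in mel, yak, pse and vir) stayed within 1.5 times under all alternatives, as did the 36 calls between embryos of species. The count between the sexes stayed at 0 in mel but moved in the other species. In yak the 2 calls became 1 with a pseudocount of 0.1 and 0 with a fit of its own, and 1 to 2 on leaving out a library (1 without male 1 or male 2). In pse the 1 call became 0 without normalisation, with the median, 95th percentile and quantile tables, with the removed libraries kept in and with a fit of its own, and 0 to 1 on leaving out a library (0 without male 2, male 3, female 1 or female 2). In vir the range was 0 to 1 (1 without female 2). The 4 calls between eggs became 2 with the removed libraries kept in and 1 to 4 on leaving out a library (2 without mel egg 3, 1 without vir egg 1), and the 7 differing changes became 12 with the median table and 6 to 11 on leaving out a library (11 without vir male 3). The cause was not tested, save that a fit per species has fewer samples.

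Replicate numbers do not pair these samples: correlations of same-numbered deviations ran from -0.171 to 0.468. With a replicate block within each species, the pse call between the sexes became 0, the differing changes 11, and mam in vir was -0.04. The egg calls became 2 and the embryo species calls 27 of 45. In that fit, levels compared between species are those at the lowest-numbered replicate of each, not means over replicates. The lower egg and embryo species counts are therefore no measure of a replicate effect.

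None of the embryo minus egg differences that changed sign was called in the main analysis, but for Su(H) the reversed values without normalisation and with the 95th percentile passed as lower in embryos. Without normalisation they were mam in pse (-0.02) and vir (-0.23), N in pse (-0.03) and Su(H) in mel (-0.58) and yak (-0.34). With the 95th percentile the same were -0.14, -0.30, -0.16, -0.72 and -0.45. With TMM, mam in vir was -0.24 and Su(H) in mel -0.33. mam in vir was also -0.02 with the median table and -0.03 with the removed libraries kept in, and -0.01 to 0.42 on leaving out a library, Su(H) in mel -0.11 to 0.21. ac between the sexes in vir was -0.03 with the removed libraries kept in and -0.15 to 0.73 on leaving out a library. neur in vir against mel eggs was 0.06 with the median table. The calls for l(1)sc, neur, Dl and H in embryos against eggs passed under all alternatives in all 4 species.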
